A study of Mus with 8 samples.

Results

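The 9 genes described here encode the enzymes that make fatty acids from glucose in mouse liver and the factors that control them: Acly, Acaca, Acacb, Fasn, Me1, Srebf1, Mlxipl, Thrsp and Pklr. They were chosen by gene name from 54532 genes, and all 9 had enough counts to be tested, among 11729 genes in all. Liver RNA came from mice with colitis induced by 2.5% dextran sulfate sodium (DSS), a polysaccharide that injures the colonic lining, stopped on day 6. The diet-alcohol group (4 libraries, 35, 45, 65 and 71) had DSS, a high-fat diet and alcohol, and the DSS group (4 libraries, 15, 48, 49 and 50) is labelled with DSS alone. Both groups had DSS, diet and alcohol were given together, and the feed of the DSS group, the strain and the age are not stated in the labels. The study's design also names a purified high-fat feed given after DSS, and whether the DSS group received it cannot be told from the labels. The labels do not say that each library is a separate mouse, so each p-value here reflects library-to-library spread, which may be technical.

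De novo lipogenesis turns citrate exported from mitochondria into long-chain fatty acids. ATP citrate lyase (Acly) releases acetyl-CoA, acetyl-CoA carboxylases (Acaca and Acacb) make malonyl-CoA, fatty acid synthase (Fasn) builds palmitate, and malic enzyme (Me1) supplies NADPH. Insulin acts on these genes mainly through SREBP1c, a product of Srebf1, and glucose through ChREBP, the product of Mlxipl. Pklr, which encodes the liver pyruvate kinase, is a classic ChREBP target, and Thrsp encodes Spot 14, a small nuclear protein that follows lipogenic activity.

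Total counts ran from 12502300 to 16967839 per library. Mitochondrially encoded transcripts took 30.2 to 73.0% of the counts in the diet-alcohol group and 55.8 to 79.1% in the DSS group (on average 45.2% ± 19.2 and 65.2% ± 11.4, SD over 4 libraries; p = 0.143, two-sided exact permutation test). Counts of all other genes ran from 2722757 in DSS library 50 to 10947612 in diet-alcohol library 45. Diet-alcohol libraries 35, 45 and 71 had more of these counts than any DSS library. Genes with 1 to 9 counts numbered 784 in library 35, and 4319 to 4987 elsewhere. All 11 hepatocyte markers in the file had counts in every library.

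Pklr and Thrsp had lower values in each diet-alcohol library than in any DSS library, and the values of the other 7 genes overlapped between the groups. None of the 9 genes passed the test over all genes (edgeR quasi-likelihood F test, Benjamini-Hochberg adjusted p under 0.05), against 1.26% of all tested genes. At an unadjusted p under 0.05 there were 2 of 9, Pklr and Thrsp, against 11.7% of all genes. DESeq2 called these 2 genes, with 4.13% of all genes called, and so did edgeR when low counts were not filtered (1.44%). No member was called by limma-voom (1.03% of all genes) or by limma on log2(FPKM + 1) and log2(FPKM + 0.1) (1.5 and 1.28%). Groups did not overlap for 2 of 9 genes, both lower with diet and alcohol; of all tested genes 4.63% were lower without overlap and 8.77% did not overlap in either direction. The median log2 fold change of the 9 genes was -0.19, with 3 positive and 6 negative values, and that of all tested genes was -0.0058.

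**Figure D1:**
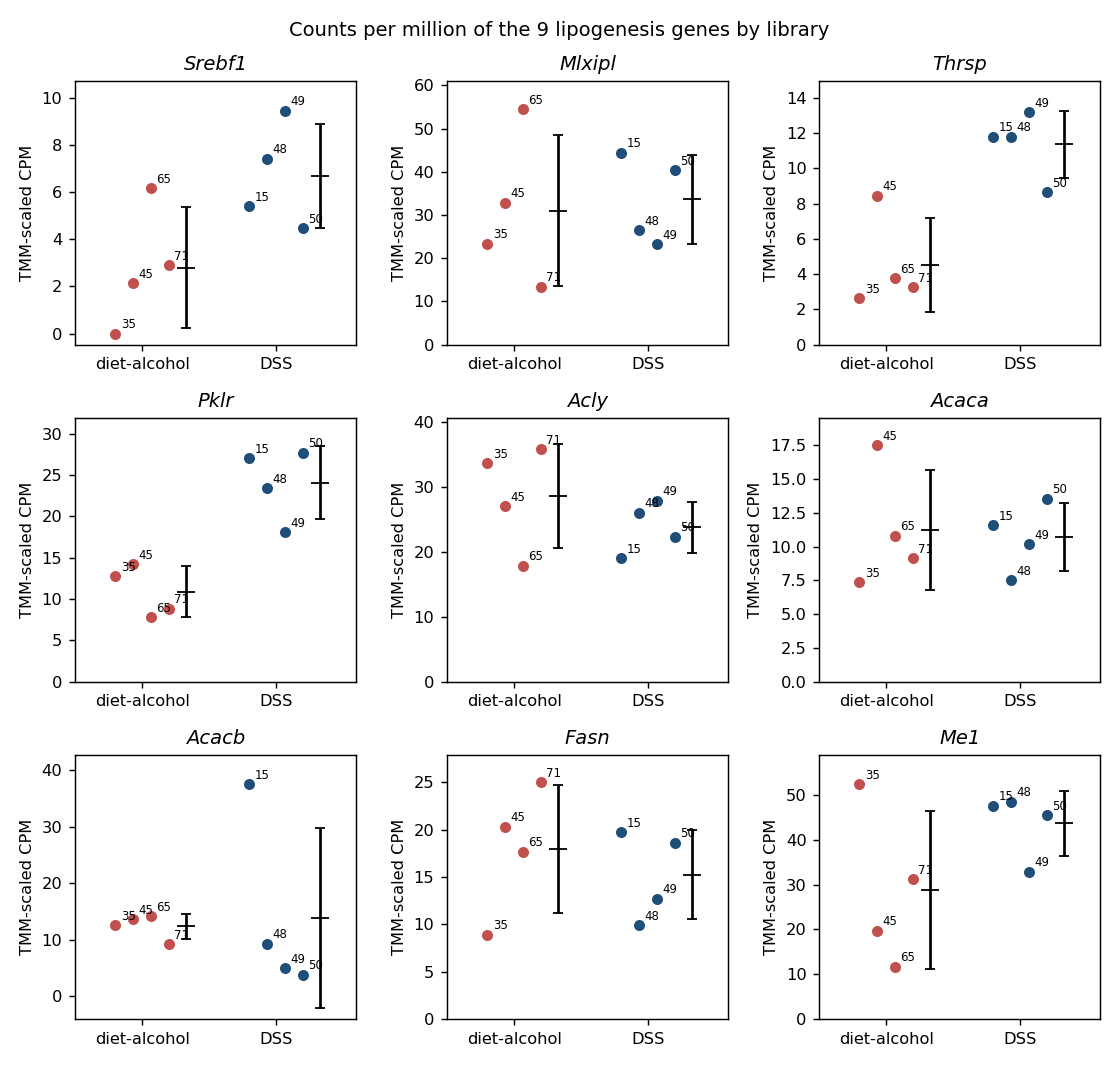
TMM-scaled CPM (y axis) of each gene in the 4 diet-alcohol and 4 DSS libraries (x axis); points carry library numbers, and bars give the mean and SD of each group. Pklr and Thrsp show no overlap between groups, and Acacb stands at 37.5 CPM in DSS library 15.

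Srebf1 (chromosome 11, 60199089 to 60222581, minus strand, GRCm38) encodes SREBP1, a membrane-bound factor that is released by proteolysis and activates lipogenic genes. Counts are per gene, so the transcripts of SREBP1a and SREBP1c were not separated. It had 0, 2.14, 6.19 and 2.90 CPM (counts scaled to library size, with TMM factors) in diet-alcohol libraries 35, 45, 65 and 71. In DSS libraries 15, 48, 49 and 50 it had 5.42, 7.43, 9.47 and 4.47 CPM. Libraries 35, 45 and 71 lay below every DSS library, and library 65 lay among them. The log2 fold change was -1.29 ± 0.83 (SE, n = 4 each; edgeR adjusted p = 0.623).

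The value of 0 in library 35 is the lowest of the 8. A count of 0 there allows up to 0.168 CPM, for counting error only. Tested genes within 1.5 times of the Srebf1 level in the other 7 libraries numbered 2810, Srebf1 included. Of these, 163 (5.80%) were listed at 0 in library 35, against at most 3 in any other library. That level left out library 35 but included each library it is compared with, so the counts are not made alike. Without library 35 the log2 fold change was -0.89 (edgeR adjusted p = 0.304), and without library 65 it was -1.97 (edgeR adjusted p = 0.366). Over 19 alternatives it ran from -2.65 with limma-voom (adjusted p = 0.353) to -0.57 with limma on log2(FPKM + 1) (adjusted p = 0.294), and was -0.65 when libraries were scaled to hepatocyte markers (edgeR adjusted p = 0.700).

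Mlxipl (chromosome 5, 135089890 to 135138382, plus strand), which encodes ChREBP, had 23.4, 32.8, 54.5 and 13.4 CPM in diet-alcohol libraries 35, 45, 65 and 71. It had 44.4, 26.4, 23.2 and 40.4 CPM in DSS libraries 15, 48, 49 and 50. The diet-alcohol group held both the highest and the lowest of the 8 values, and the groups overlapped. Its log2 fold change was -0.12 ± 0.39 (SE; edgeR adjusted p = 0.945). An interval of 2 SE ran from -0.89 to 0.65, on both sides of 0.

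Pklr (chromosome 3, 89136142 to 89146784, plus strand) encodes the pyruvate kinase of liver and red cells, which makes the pyruvate that feeds citrate. In diet-alcohol libraries 35, 45, 65 and 71 it had 12.8, 14.2, 7.84 and 8.85 CPM. In DSS libraries 15, 48, 49 and 50 it had 27.1, 23.4, 18.1 and 27.7 CPM. The highest diet-alcohol value was below the lowest DSS value. Means were 10.9 ± 3.05 and 24.1 ± 4.41 CPM in the diet-alcohol and DSS groups (SD, n = 4 each), a 2.20-fold lower level with diet and alcohol (log2 fold change -1.14 ± 0.25, SE; edgeR adjusted p = 0.0603). It ranked 180 by p among the 11729 genes.

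Pklr was just outside the threshold, and over 19 alternative fits its adjusted p ran from 0.00327 to 0.250. DESeq2 gave 0.00327, and edgeR with low counts unfiltered 0.0156. Without library 35, where 2.55% of all genes were called, it was the 1 member called (log2 fold change -1.21, edgeR adjusted p = 0.0179). In the authors' deposited table its log2 fold change was -1.14 with an adjusted p of 0.00895, in a comparison that called 2.09% of genes. The log2 fold change lay between -1.29 and -1.02 with any 1 library left out.

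Thrsp (chromosome 7, 97412938 to 97417730, minus strand) had 2.63, 8.44, 3.76 and 3.25 CPM in diet-alcohol libraries 35, 45, 65 and 71. In DSS libraries 15, 48, 49 and 50 it had 11.8, 11.8, 13.2 and 8.64 CPM. Library 45 came close to DSS library 50, and the other 3 diet-alcohol libraries had at most 3.76 CPM. Thrsp was 2.50-fold lower with diet and alcohol (log2 fold change -1.32 ± 0.37, SE, n = 4 each; edgeR adjusted p = 0.140). DESeq2 gave an adjusted p of 0.0362, edgeR with low counts unfiltered 0.0227, and an adjusted p of 0.0469 stands in the authors' deposited table. Without library 45, where 0.694% of all genes were called, it was the 1 member called (log2 fold change -1.83, edgeR adjusted p = 0.0296). Over 19 alternative fits its adjusted p ran from 0.0227 to 0.376.

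Summed markers of hepatocytes, macrophages and neutrophils also differed between the groups. The summed level of 11 hepatocyte markers was 30251 to 39491 CPM in the diet-alcohol group and 45284 to 70905 CPM in the DSS group, without overlap, although none of the 11 passed singly. Alb, which encodes albumin, made up much of that sum, with 18457 ± 3871 CPM in the diet-alcohol group and 42304 ± 8921 CPM in the DSS group (SD, n = 4 each). The other 10 markers summed to 15470 to 17992 CPM in the diet-alcohol group and 15092 to 20649 CPM in the DSS group, which overlap; Fgb, a fibrinogen gene, had a log2 fold change of 1.12 and Tat, tyrosine aminotransferase, one of 0.0070 (edgeR adjusted p = 0.0938 and 0.994). Summed Kupffer cell and macrophage markers (10 of 10 detected, 1 passing) ran from 371 to 723 CPM in the diet-alcohol group, against 216 to 347 CPM in the DSS group. The gene that passed was Marco, a macrophage scavenger receptor (log2 fold change 4.13; edgeR adjusted p = 0.00891). Without Marco, a sum taken after the data were seen, the other 9 ran from 274 to 541 CPM in the diet-alcohol group and 209 to 335 CPM in the DSS group, and the groups overlapped. Summed neutrophil markers (4 of 10 tested, 3 passing) ran from 29.4 to 62.3 CPM in the diet-alcohol group, against 4.19 to 15.5 CPM in the DSS group. The adipocyte genes Adipoq and Lep had no count in any library. Summed adipocyte markers overlapped between groups, but that sum was mostly Pck1. Over all libraries Pck1 had 144364 counts, and the next highest of the list, Cidec, had 3747. The sum therefore says little about adipocytes. The part of hepatocyte, macrophage and neutrophil RNA in the lower Pklr and Thrsp values was not tested beyond the scaling that follows. In bulk liver, fewer cells of a type and less RNA per cell cannot be told apart.

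Scaling each library to its hepatocyte markers, a setting chosen after the data were seen, moved the median of all genes to 0.50 on the log2 scale. Pklr then had a log2 fold change of -0.67 and Thrsp of -0.83. Relative to that median these are -1.17 and -1.33. Subtracting the median largely undoes the scaling, so these relative values lie near the main fit (-1.14 and -1.32) and are no separate result. On the hepatocyte scale the groups overlapped for both genes. Acly was higher there in every diet-alcohol library than in any DSS library (log2 fold change 0.74, edgeR adjusted p = 0.138). Relative to that median it stood at 0.24, and its TMM-scaled values overlapped between groups. The share of all genes without overlap on the hepatocyte scale was not counted, so the separation of Acly cannot be set against it. For Pklr and Thrsp the adjusted p by edgeR was 0.250 and 0.245, with 1.81% of all genes called.

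**Figure D2:**
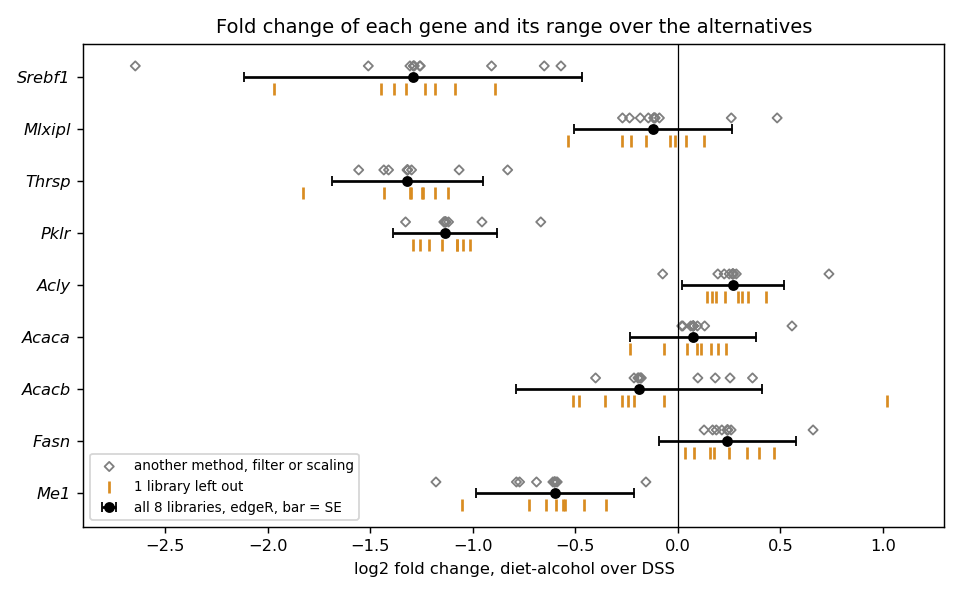
Log2 fold change of diet-alcohol over DSS (x axis) for each gene (y axis); black points are the fit of all 8 libraries with its SE, diamonds other methods, filters or scalings, and ticks fits without 1 library. The points of Pklr, Thrsp, Srebf1 and Me1 stay below 0 throughout and those of Fasn above 0, and Acacb runs from -0.51 to 1.02.

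Among the enzymes, Acly (chromosome 11, 100476353 to 100528000, minus strand) had 33.7, 27.1, 17.9 and 35.8 CPM in diet-alcohol libraries 35, 45, 65 and 71. It had 19.0, 26.02, 27.9 and 22.3 CPM in DSS libraries 15, 48, 49 and 50. Libraries 35 and 71 were above every DSS library and library 65 was below them all. The log2 fold change was 0.27 ± 0.25 (SE; edgeR adjusted p = 0.762), and over 19 alternatives it ran from -0.075, with the mitochondrial share as a covariate, to 0.74, with libraries scaled to hepatocyte markers.

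Fasn (chromosome 11, 120805846 to 120824547, minus strand) had 8.90, 20.3, 17.7 and 25.0 CPM in diet-alcohol libraries 35, 45, 65 and 71, and 19.8, 9.89, 12.7 and 18.6 CPM in DSS libraries 15, 48, 49 and 50. The ranges overlapped almost entirely. Its log2 fold change was 0.24 ± 0.33 (SE; edgeR adjusted p = 0.850), and 2 SE either side gave -0.43 to 0.91. A fold change as large as that of Pklr in the same direction lay outside this interval.

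Me1 (chromosome 9, 86581371 to 86695953, minus strand) had 52.5, 19.7, 11.7 and 31.2 CPM in diet-alcohol libraries 35, 45, 65 and 71. It had 47.6, 48.6, 32.95 and 45.6 CPM in DSS libraries 15, 48, 49 and 50. Libraries 45, 65 and 71 were below every DSS library and library 35 was above them all. The log2 fold change was -0.60 ± 0.38 (SE; edgeR adjusted p = 0.623). It was -1.06 without library 35, -0.35 without library 65, -1.18 when the mitochondrial share was a covariate and -0.16 when libraries were scaled to hepatocyte markers. An interval of 2 SE ran from -1.37 to 0.17, which includes a difference as large as that of Pklr. Me1 passed in none of 19 alternative fits (adjusted p from 0.0777 to 0.849).

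Acaca and Acacb encode separate acetyl-CoA carboxylases: the product of Acaca is cytosolic and supplies fatty acid synthesis, and that of Acacb sits at the mitochondrial surface, where its malonyl-CoA restrains fatty acid import by CPT1. Acaca (chromosome 11, 84129672 to 84401651, plus strand) had 7.39 to 17.5 CPM in the diet-alcohol group and 7.504 to 13.6 CPM in the DSS group (log2 fold change 0.073 ± 0.31, SE; edgeR adjusted p = 0.958). Acacb (chromosome 5, 114146535 to 114250761, plus strand) had 12.5, 13.6, 14.1 and 9.13 CPM in diet-alcohol libraries 35, 45, 65 and 71. It had 37.5, 9.26, 4.91 and 3.72 CPM in DSS libraries 15, 48, 49 and 50. DSS library 15 was the highest of all 8, and DSS libraries 49 and 50 were the lowest.

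The Acacb log2 fold change was -0.19 ± 0.60 (SE; edgeR adjusted p = 0.944), and its sign was not stable. Without DSS library 15 it was 1.02 (edgeR adjusted p = 0.267), and with all 8 libraries it ran up to 0.36, on log2(FPKM + 0.1). An interval of 2 SE ran from -1.39 to 1.01. Within the DSS group Acacb varied 10.1-fold between libraries, the widest DSS spread of the 9 genes, against 1.55-fold within the diet-alcohol group.

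Per length, the ratio of Acacb to Acaca FPKM was 3.01, 1.37, 2.32 and 1.77 in diet-alcohol libraries 35, 45, 65 and 71. It was 5.74, 2.19, 0.855 and 0.487 in DSS libraries 15, 48, 49 and 50. Acacb exceeded Acaca in every diet-alcohol library, but in DSS libraries 49 and 50 Acaca was the higher. The log2 ratio averaged 1.02 ± 0.49 in the diet-alcohol group and 0.60 ± 1.56 in the DSS group (SD, n = 4 each), and the ranges overlapped.

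**Figure D3:**
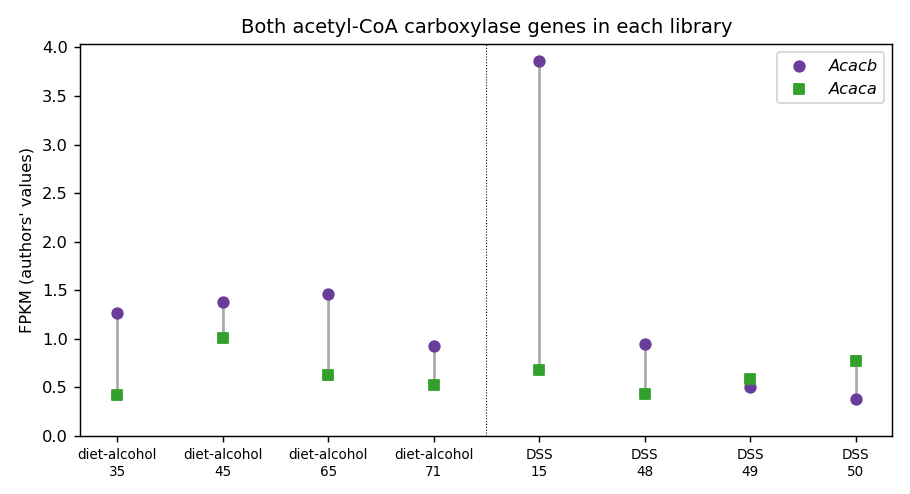
FPKM of Acacb (circles) and Acaca (squares) in each library (x axis), diet-alcohol left of the dotted line and DSS right of it. Acacb is above Acaca in all 4 diet-alcohol libraries, and below it in DSS libraries 49 and 50.

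Compared per length in the authors' FPKM values, Me1 had the highest mean of the 9 transcripts in both groups. It averaged 7.29 ± 4.44 FPKM in the diet-alcohol group and 11.1 ± 1.88 FPKM in the DSS group (SD, n = 4 each). Pklr ranked 4 of 9 by mean in the diet-alcohol group (3.30 ± 0.91 FPKM) and 2 of 9 in the DSS group (7.29 ± 1.34 FPKM). In the diet-alcohol group every gene overlapped its neighbour in this order, and Me1 was above Mlxipl in 2 of 4 libraries. Without library 35 the diet-alcohol mean was 5.31 FPKM for Me1 and 5.97 FPKM for Mlxipl. In the DSS group only Me1 was clear of the next gene, Pklr. Fasn (1.61 and 1.36 FPKM in the diet-alcohol and DSS groups), Acacb, Srebf1 and Acaca (0.644 and 0.614 FPKM) made up the lower end in both groups.

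**Figure D4:**
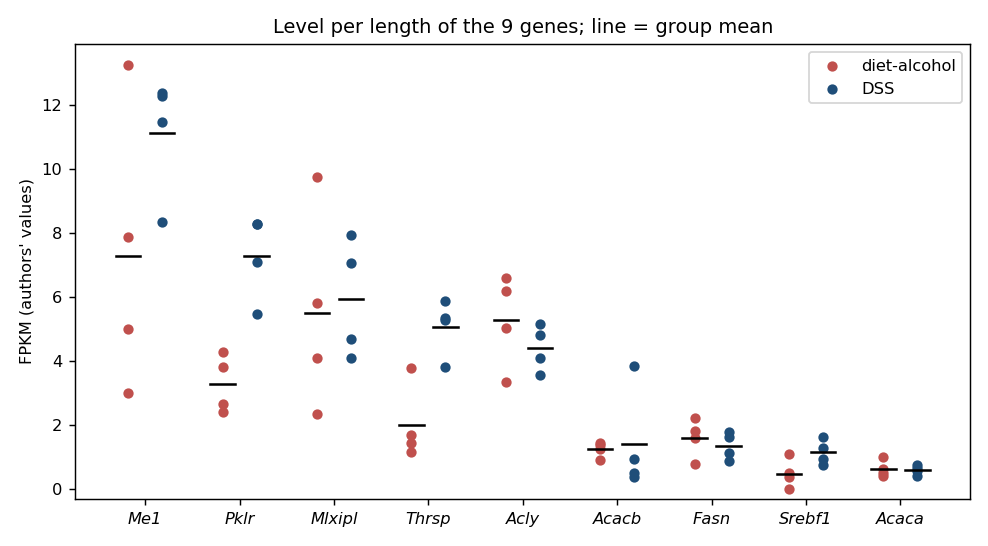
FPKM (y axis) of the 9 genes in the order of their DSS means (x axis), with each library as a point and the group mean as a line, diet-alcohol left of DSS. Me1 has the highest mean in both groups, and the mean of Pklr is 3.30 FPKM with diet and alcohol against 7.29 FPKM in the DSS group.

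Genes that act around these 9 were taken from 6 lists, chosen with earlier results of these data known. Of 104 tested genes, 1 rose and 3 fell (edgeR), 3.85% in all, where 0.588% of all tested genes rose and 0.674% fell, and their median log2 fold change was -0.18. The calls lay in 2 lists, the control of SREBP processing and the steps that follow palmitate.

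In the list of SREBP1c transcription and processing 1 of 20 tested genes rose and none fell (median -0.16). Insig1, which holds SREBP in the endoplasmic reticulum and is itself induced by SREBP, had 18.1, 27.0, 11.04 and 20.8 CPM in diet-alcohol libraries 35, 45, 65 and 71. It had 6.61, 7.22, 5.63 and 5.36 CPM in DSS libraries 15, 48, 49 and 50. Insig1 rose 3.09-fold with diet and alcohol, without overlap (log2 fold change 1.63 ± 0.29, SE; edgeR adjusted p = 0.0174). The call was lost with the mitochondrial share as a covariate (1.11, edgeR adjusted p = 0.147), and without DSS library 48, 49 or 50 or diet-alcohol library 45 (0.0716, 0.0891, 0.0929 and 0.0672). Chosen after their values were seen, Srebf2, which encodes SREBP2, stood at 0.91 ± 0.29 (edgeR adjusted p = 0.188) and Insig2, of the same list, at -0.77 ± 0.35 (0.437).

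In the list of ChREBP partners and carbohydrate-response targets none of 19 tested genes passed (edgeR), with 5 at an unadjusted p under 0.05, all with negative values, where 11.7% of all genes reached that level. DESeq2 called 3, limma 0 and unfiltered edgeR 2, where DESeq2 called 4.13% and unfiltered edgeR 1.44% of all genes. The median was -0.39, with 15 negative and 4 positive values (78.9% negative, against 50.5% of all tested genes). G6pc, the catalytic subunit of glucose-6-phosphatase, averaged 35.6 ± 20.5 CPM in the diet-alcohol group and 105 ± 31.0 CPM in the DSS group, without overlap (log2 fold change -1.55 ± 0.39, SE; edgeR adjusted p = 0.0924). Mlx, the dimer partner of ChREBP, stood at 0.048 ± 0.24 (edgeR adjusted p = 0.968) and was chosen after its value was seen.

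Supply of precursors and NADPH gave no call in 14 tested genes (edgeR; 2 at an unadjusted p under 0.05, DESeq2 1, limma 0, unfiltered edgeR 1), with a median of 0.085. Over all genes those shares were 11.7% at the unadjusted level, 4.13% with DESeq2 and 1.44% with unfiltered edgeR. The 2 genes at the unadjusted level were Pgd and G6pdx, and the other tested pentose phosphate genes Pgls, Tkt and Taldo1 had log2 fold changes of 0.19, 0.029 and 0.29. Pgd, 6-phosphogluconate dehydrogenase, had 15.9, 17.7, 16.5 and 21.6 CPM in diet-alcohol libraries 35, 45, 65 and 71, and 8.04, 10.2, 5.15 and 9.83 CPM in DSS libraries 15, 48, 49 and 50. The groups did not overlap (log2 fold change 1.11 ± 0.26, SE; edgeR adjusted p = 0.0695). G6pdx, glucose-6-phosphate dehydrogenase, averaged 7.93 ± 2.74 CPM in the diet-alcohol group and 3.92 ± 2.003 CPM in the DSS group (SD, n = 4 each; log2 fold change 1.004 ± 0.41, SE; edgeR adjusted p = 0.356). Me1, the other NADPH source named here, had a negative log2 fold change of -0.60 (edgeR adjusted p = 0.623), but its values overlapped between the groups.

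Beyond palmitate, 3 of 21 tested genes of desaturation, elongation and esterification fell and none rose (median -0.58). They were the stearoyl-CoA desaturase gene Scd1, the long-chain acyl-CoA synthetase gene Acsl1 and the elongase gene Elovl5. Scd1 had 10.9, 59.8, 54.8 and 42.8 CPM in diet-alcohol libraries 35, 45, 65 and 71, against 376, 892, 640 and 529 CPM in DSS libraries 15, 48, 49 and 50. Every diet-alcohol value was below every DSS value (log2 fold change -3.86 ± 0.50, SE, n = 4 each; edgeR adjusted p = 0.00401), and Scd1 passed in all 19 alternative fits. Elovl6, which elongates palmitate, stood at -0.31 ± 0.23 (edgeR adjusted p = 0.692) and Gpam, which starts triglyceride synthesis, at -1.06 ± 0.29 (0.133); both were chosen after their values were seen. Acsl1 averaged 91.4 ± 21.8 CPM in the diet-alcohol group and 351 ± 101 CPM in the DSS group (SD, n = 4 each; log2 fold change -1.94 ± 0.27, SE; edgeR adjusted p = 0.00555). Its call was lost when libraries were scaled to hepatocyte markers (edgeR adjusted p = 0.0521). Elovl5 averaged 76.7 ± 15.7 CPM in the diet-alcohol group and 215 ± 61.2 CPM in the DSS group (SD, n = 4 each; log2 fold change -1.49 ± 0.27, SE; edgeR adjusted p = 0.0199). That call was lost with the hepatocyte scaling (edgeR adjusted p = 0.0875) and without DSS library 48 or 49 or diet-alcohol library 45 or 65 (0.0983, 0.0735, 0.0814 and 0.0502).

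None of 20 genes of insulin and AMPK control passed (edgeR; 1 at an unadjusted p under 0.05, DESeq2 and limma 0; median -0.13), where 11.7% of all genes reached the unadjusted level and DESeq2 called 4.13%. Its largest values were those of Prkab2, an AMPK subunit, at 1.39 ± 0.88 (edgeR adjusted p = 0.619) and Irs1, an insulin receptor substrate, at -0.84 ± 0.63 (0.689). Both genes had low levels. Prkab2 averaged 1.28 CPM in the diet-alcohol group and 0.494 CPM in the DSS group, and Irs1 1.01 and 1.86 CPM. None of 10 genes of malonyl-CoA use and opposing oxidation passed either (edgeR; 2 at an unadjusted p under 0.05, DESeq2 2, limma 0; median 0.0027), beside the same shares of 11.7 and 4.13% over all genes. Pdk4, which restrains pyruvate dehydrogenase, stood at -2.18 ± 0.62 (edgeR adjusted p = 0.1501) and Acsm1, a medium-chain acyl-CoA synthetase, at 0.64 ± 0.21 (0.202). Cpt1a, the step that malonyl-CoA inhibits, stood at 0.30 ± 0.29 (edgeR adjusted p = 0.765) and was chosen after its value was seen.

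**Figure D5:**
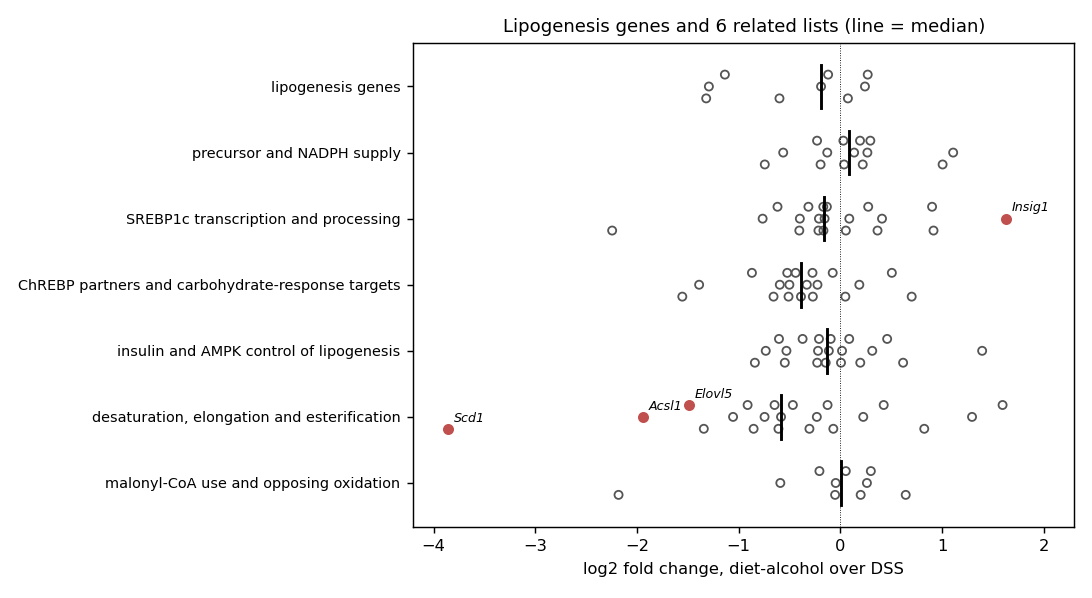
Log2 fold change of diet-alcohol over DSS (x axis) for the 9 lipogenesis genes and the 6 related lists (y axis); filled points passed edgeR's adjusted p of 0.05, and the line is the median of each list. Filled points are Insig1 on the right and Scd1, Acsl1 and Elovl5 on the left.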

How the data were processed

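The deposited table holds a raw count and an FPKM value, both made by the authors, for every gene in 8 mouse liver mRNA libraries. The authors' log2 fold change, p-value, adjusted p-value and mean normalized signal per group are also in the deposited table; its tool is not stated. The builds GRCm38 and mm10 are named in the submitters' processing notes; which aligner, counter and strand option were used is not given in the sources used here. All 9 genes overlap the RefSeq gene of the same symbol in GRCm38.p6.

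Genes were filtered with filterByExpr, scaled by TMM and tested over all genes with edgeR 4.0.16 (robust quasi-likelihood F test, R 4.3.3). CPM are TMM-scaled. Alternatives used DESeq2 1.42.0 and limma 3.58.1 on log2(FPKM + 1) and log2(FPKM + 0.1), and others listed in the closing section. The test was tried on simulated data. No set test was run. No pairing or batch is labelled. Total counts per library were 12502300 to 16967839, and counts outside the mitochondrial genes 2722757 to 10947612. The upper limit given for a count of 0 covers counting error only.

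The genes, lists, alternatives and naming rule were chosen with earlier results of these data known. The text names all 9 genes and, per list, up to 4 genes past the threshold or, with none, the 2 of largest fold change. One gene that this rule picks is not reported here. Any other gene of the lists is marked in the text as picked with its value known, except Pgls, Tkt and Taldo1. Those were given as the other tested pentose phosphate genes. Cell type markers named singly, such as Fgb and Tat, fall outside this rule and carry no mark.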

Additional observations from a re-analysis of the deposited data

Results flagged for a closer look

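Acacb stood apart in DSS library 15, at 37.5 CPM, where the other 3 DSS libraries had 3.72 to 9.26 CPM. Prkab2, which encodes an AMPK subunit, stood apart in DSS library 49, at 1.44 CPM, where the other 3 DSS libraries had 0.140 to 0.249 CPM. All of these Prkab2 values are low and rest on few counts. In both, the gap to the nearest library exceeded Dixon's limit for 4 values. These were 2 of 46 groups examined, and chance flags about 5% of groups.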

How the results depend on the processing

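Of 171 values of the 9 genes under 19 alternatives, 153 kept their direction and their side of the threshold, 6 newly passed it and 12 changed sign without passing. Pklr and Thrsp passed in 3 alternatives each, and the other 7 genes in none. The number of the 9 genes called was 0 in the reported fit, 2 with DESeq2, 2 without a filter on low counts and 0 to 1 with 1 library left out. Over all genes 148 were called, 484 with DESeq2, 320 without a filter, 55 with the mitochondrial share as a covariate and 58 to 308 with 1 library left out. The 6 lists had 4 calls, 13 with DESeq2, 8 without a filter and 2 to 6 with 1 library left out. Sign changes were as follows. Acly was -0.075 with the covariate. Acaca ran from -0.23 to 0.23 with 1 library left out. Acacb was 0.18 with limma-voom, 0.10 on log2(FPKM + 1), 0.36 on log2(FPKM + 0.1), 0.25 when scaled to hepatocyte markers, and -0.51 to 1.02 with 1 library left out. Mlxipl was 0.26 with the covariate, 0.48 when scaled to hepatocyte markers, and -0.54 to 0.13 with 1 library left out. The difference in the log2 ratio of Acacb to Acaca was 0.42, and -0.12 to 1.07 with 1 library left out. The cause was not tested. RLE and upper-quartile scaling, a filter of 1 CPM in 4 libraries and leaving out mitochondrial genes changed no call among the 9 genes. No paired analysis was possible because no number occurs in both groups.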

Other observations

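Acly and Mlxipl lay at opposite ends in several libraries, a pattern chosen after the values were seen and not tested. Diet-alcohol library 71 had the lowest Mlxipl (13.4 CPM) and the highest Acly (35.8 CPM). Diet-alcohol library 65 had the highest Mlxipl (54.5 CPM) and the lowest Acly (17.9 CPM). DSS libraries 15 and 50 came next to library 65 on both genes. Among the other 4 libraries, DSS 49 and diet-alcohol 35 exchanged neighbouring ranks, and so did DSS 48 and diet-alcohol 45. Pearson r of the 2 genes in log2 CPM was -0.936 over the 8 libraries and -0.961 without library 35. It was the largest in size among the 36 pairs of the 9 genes.

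Among 4380 other genes of at least 10 CPM, Ociad1, Mfn1 and Rnaseh2a followed Fasn most closely in log2 CPM over the 8 libraries (Pearson r of 0.958, 0.949 and 0.933; 0.947, 0.934 and 0.898 without library 35). Srebf1 was followed most closely by Gm8893, a predicted gene, Ndufa5 and Tns2 among 4381 genes (r of 0.974, 0.971 and 0.971), and r was 0.869, 0.861 and 0.883 without library 35, where Srebf1 was at 0. Mlxipl was followed by Cox7c, Echdc2 and Sfswap (r of 0.919, 0.895 and 0.893; 0.915, 0.889 and 0.962 without library 35). These are descriptions over libraries that share depth and composition differences. Each set holds the 3 highest r of 4380 or 4381 genes over only 8 libraries. How high the top r among unrelated genes would be was not tested.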
